A study of Danio rerio with 13 samples.

Results

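Genes that carry a cell through mitosis were followed across zebrafish acute lymphoblastic leukemias. The set was a list of 44 zebrafish symbols, from the kinases and cyclins that start mitosis to the proteins that split the daughter cells, matched in any letter case to the Ensembl gene identifiers of the deposited read counts. Of these, 38 were found among 32105 identifiers, and all 38 were among the 13663 genes that passed the filter on low counts. The symbols incenp, birc5a, cenpa, kif4, ube2c and prc1b were not analysed here as members; rows that the name table calls KIF4A, BIRC5 and PRC1 were not tied to these symbols by the tables used.

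Each library came from GFP-positive cells, sorted by flow cytometry from the whole body of a fish of the rag2:hMYC;lck:eGFP double transgenic line. In this line human MYC is driven by the rag2 promoter, active in immature B and T lymphocytes, and eGFP by the lck promoter, best known from T cells. All 13 leukemias carried both transgenes and formed 1 group with no untransformed control, and the age of the fish and the B or T type of each leukemia are not in the labels. The only split in the labels is a letter in the description, d for 6 of the libraries analysed and c for the other 6, whose meaning is not given.

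Mitosis begins when Cdk1, bound to cyclins A and B, phosphorylates a wide range of proteins, after which condensin compacts the chromosomes and a microtubule spindle attaches to their kinetochores. The spindle checkpoint holds anaphase back until every kinetochore is attached. The anaphase-promoting complex then destroys cyclin B and securin, separase cuts cohesin, and centralspindlin guides cytokinesis. Many of these genes are transcribed in G2 and M phase under FOXM1 and the B-MYB-MuvB complex, so that their mRNA is widely read as a mark of dividing cells. Gene roles are given as known from vertebrate cells, mostly human.

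The libraries analysed held 8166453 to 12297780 counts, hMYC-2 the fewest and hMYC-8 the most. Library hMYC-1 was left out. Its 51808498 counts were close to the 51478946 of hMYC-10 to hMYC-14 summed, and of 11072 genes with at least 10 and under 1000 counts in that sum only 1.45% had a lower count in hMYC-1, as did 0 of the 38 mitosis genes. Levels are log2 CPM, counts scaled to a common library total, after TMM scaling, which sets libraries on a common scale from the bulk of genes; the TMM factor was 0.74 in hMYC-2 and 0.964 to 1.09 in the others. B-cell and T-cell markers were both detected in every library, at summed levels of 40.7 to 4056 CPM for 13 B markers and 797 to 9819 CPM for 17 T markers; of those in the T minus B score used below, pax5 was at 0 counts in hMYC-11 and cd247l in hMYC-9.

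The mitosis genes varied together from leukemia to leukemia. The mitosis score, the mean over the 38 genes of log2 CPM minus each gene's own 12-library mean, was 1.67 in hMYC-8, which is 3.19 times the mean level. The score was -1.52 in hMYC-4, which is 0.35 times the mean level. In between, the score was 0.61 in hMYC-13, 0.44 in hMYC-14, 0.29 in hMYC-3, 0.20 in hMYC-12, -0.07 in hMYC-9, -0.14 in hMYC-10, -0.23 in hMYC-11, -0.36 in hMYC-5, -0.37 in hMYC-2 and -0.52 in hMYC-6. The high and the low leukemia thus lay further out than a graded middle. Dixon's ratio, the gap to the nearest library divided by the range, was taken within each letter as a check for outliers. In letter c, which holds both, it was 0.43 for hMYC-8 and 0.31 for hMYC-4. Both ratios were under the critical value for 6 libraries, so neither leukemia was marked as an outlier within its letter. In these bulk libraries a smaller share of dividing cells and less mitotic mRNA per cell cannot be told apart.

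**Figure D1:**
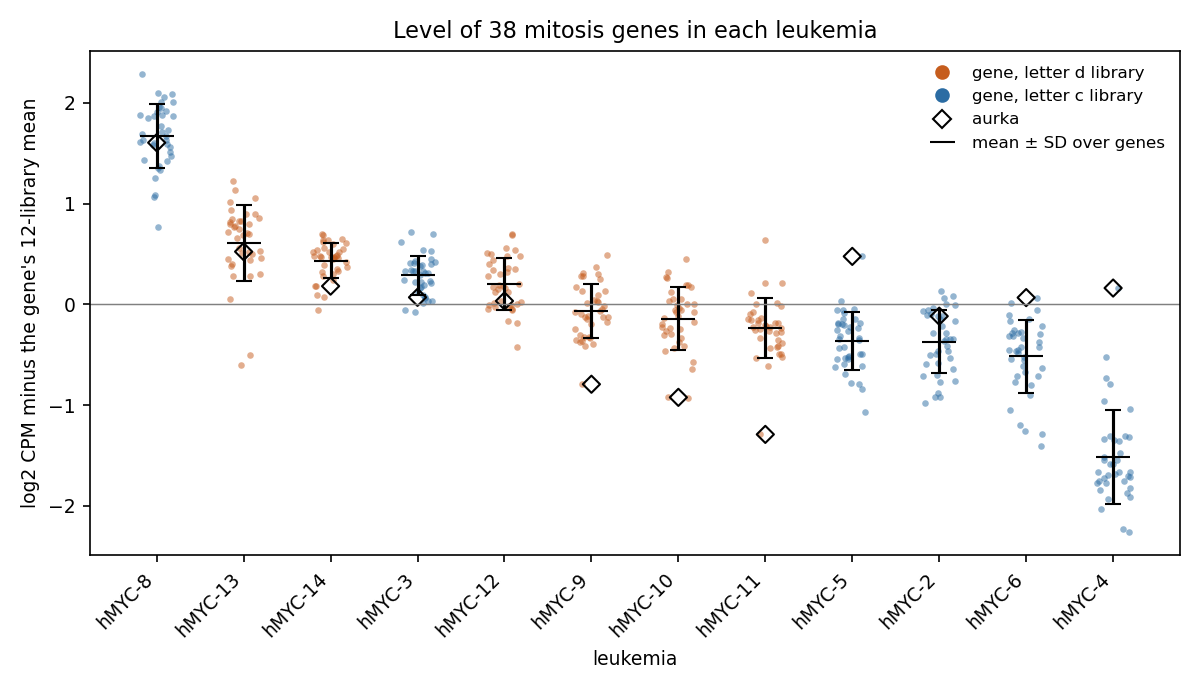
Deviation of each of the 38 mitosis genes (log2 CPM minus the gene's 12-library mean, vertical axis) in the 12 leukemias, ordered from the highest to the lowest mitosis score; points are genes coloured by description letter, diamonds mark aurka, and black lines give the mean ± SD over genes. The mean runs from 1.67 in hMYC-8 to -1.52 in hMYC-4. The distance of aurka from the mean of the other genes is largest in hMYC-4, hMYC-5, hMYC-9, hMYC-10 and hMYC-11. In hMYC-10 anln lies slightly lower than aurka (-0.925 against -0.923).

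In this order, hMYC-8 was 1.06 log2 units above the next leukemia, hMYC-13, with an SD of that difference over genes of 0.49 and all 38 genes higher in hMYC-8. At the other end, hMYC-6 was 0.999 above hMYC-4 (SD over genes 0.61), with 34 of 38 genes higher in hMYC-6. The 9 gaps between the other neighbours were 0.01 to 0.27, with SDs over genes of 0.27 to 0.49. Of the 38 genes, 32 were higher in hMYC-13 than in hMYC-14 and 31 higher in hMYC-12 than in hMYC-9, while 18 were higher in hMYC-5 than in hMYC-2. The spread over genes is not an error of the score, and with each leukemia a library of its own there is no replicate error behind a position, so the order of the leukemias was not tested. Both ends stayed in place with TMM factors, library totals, upper quartile factors and DESeq2 size factors. The total count did not follow the score closely, with a Pearson r of 0.29 over the 12 libraries and 0.10 over the 10 without hMYC-4 and hMYC-8; it was -0.15 within letter d and 0.42 within letter c.

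All 38 genes had their highest level in hMYC-8, against 7.82% of all genes tested. In hMYC-4, 33 of the 38 had their lowest level, against 9.13% of all genes, and all these 33 were also highest in hMYC-8 (1.76% of all genes). The extremes were known when the genes were listed, so nothing is read from these shares. The exceptions were ccnb3, lowest in hMYC-2, aurka, lowest in hMYC-11, and spc25, smc4 and cdc20, lowest in hMYC-6.

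Covariation was close over the whole set. The Pearson r of a gene with the mean of the other mitosis genes, over 12 libraries that each contribute their own scaling, had a median of 0.955 over the 38 genes. It was 0.9 or more for 31 of the 38, against 0.915% of all genes tested, and 0.7 or more for 36, against 3.1%. Over all genes the median r with the mitosis mean was -0.004. The genes were listed with earlier results of these data known, and the shares over all genes include the mitosis genes. These contrasts, here and without the extremes below, are therefore descriptions and nothing is read from them. The first principal component of the 38 genes held 87.7% of their variance and the second 3.97%, and among 703 pairs of genes the median r was 0.899, with 0 pairs below 0. The highest values belonged to ncapd2 (0.987), a subunit of condensin, to espl1 (0.984), the separase gene, and to cenpe (0.981), a kinetochore motor. The lowest belonged to aurka (0.482), ccnb3 (0.696) and ccnb2 (0.755).

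**Figure D2:**
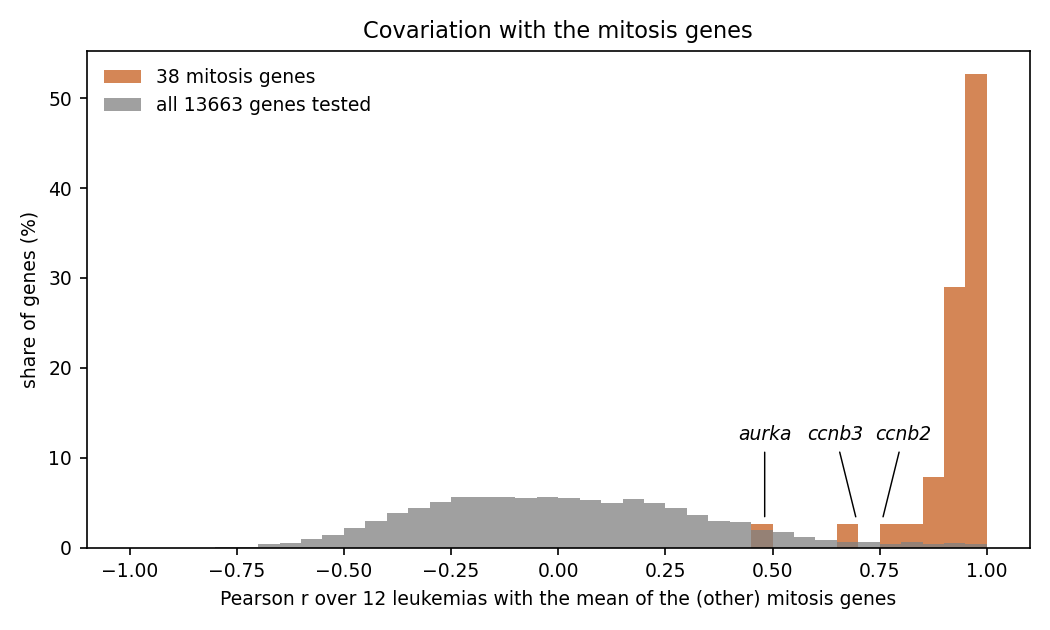
Share of genes (vertical axis, %) by Pearson r over 12 leukemias with the mean of the mitosis genes (horizontal axis; for a mitosis gene, the mean of the other 37), for the 38 mitosis genes and for all 13663 genes tested. Most mitosis genes lie at 0.9 or more, where 0.915% of all genes lie, and aurka, ccnb3 and ccnb2 are the lowest of the set.

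The shared movement did not rest on the extremes alone. Without hMYC-4 and hMYC-8, an alternative chosen after seeing the data, the median r was 0.877 over 10 libraries, and 12 of the 38 genes reached 0.9, against 0.607% of all genes. The genes with the lowest r there were ccnb2 (-0.08), ccnb3 (0.19) and aurka (0.30). Within each letter the median r was 0.892 over the 6 libraries of letter d and 0.974 over the 6 of letter c, which include both extremes. The SD of log2 CPM over the 12 libraries had a median of 0.83 over the 38 genes, against 0.55 over all genes tested. The extremes were known when the genes were listed, so nothing is read from this contrast. With the median absolute deviation, which gives the extremes less weight, the medians lay closer together, at 0.57 for the mitosis genes and 0.49 for all genes. Without hMYC-4 and hMYC-8 the median SD of the mitosis genes was 0.45, and the value of all genes over those 10 libraries is not given.

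**Figure D3:**
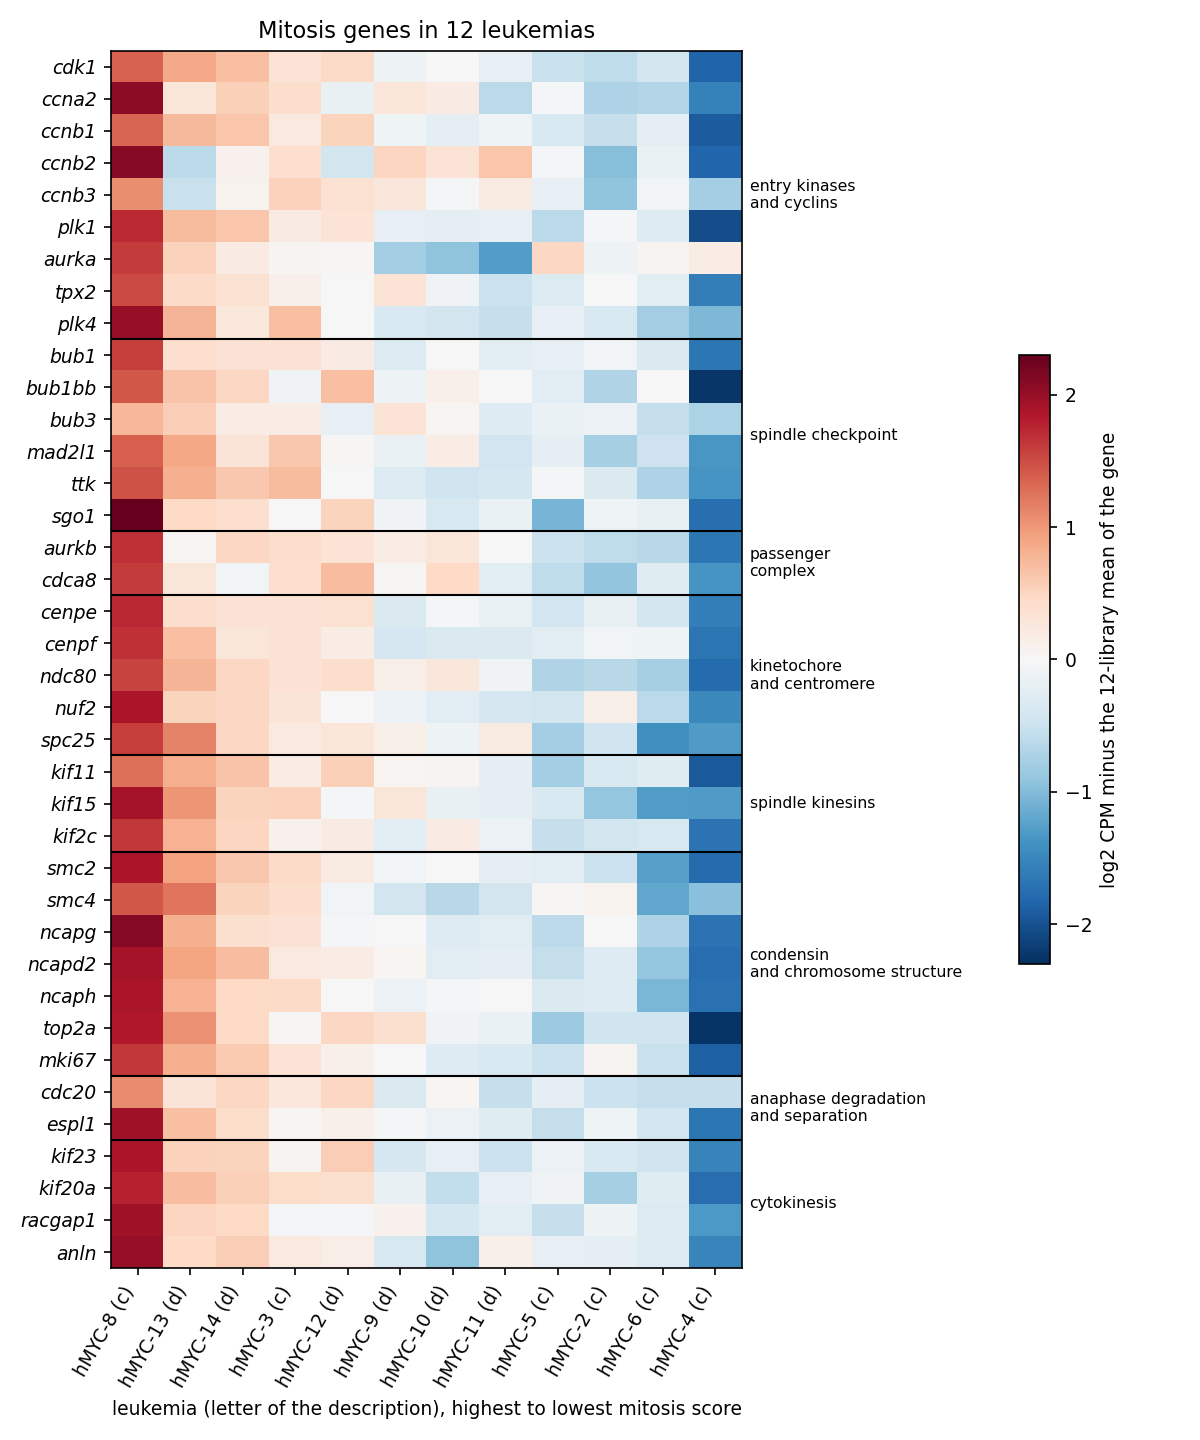
Deviation of each mitosis gene (rows, grouped by role) in each leukemia (columns, ordered by mitosis score, description letter in brackets), in log2 CPM minus the gene's 12-library mean; red is above and blue below that mean. The columns of hMYC-8 and hMYC-4 are almost uniformly red and blue, with aurka as the gene above its mean in hMYC-4.

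Among the kinases and cyclins of mitotic entry, cdk1 (ENSDARG00000087554) had a log2 CPM of 5.06 at the lowest, 5.46 at the median and 6.10 at the highest in the 6 letter d libraries, against 3.40, 4.77 and 6.59 in the 6 of letter c. Its CPM in hMYC-8 was 9.27 times that in hMYC-4. The cyclin partners ccna2 and ccnb1 moved with it (r with the other genes 0.94 and 0.96; 12.3 and 9.69 times as high in hMYC-8 as in hMYC-4). So did plk1, the Polo kinase of centrosomes and kinetochores (r 0.97; 13.6 times), plk4, which starts centriole duplication (r 0.93; 8.43 times), and tpx2, the spindle factor that activates Aurora A (r 0.95; 8.61 times).

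The B cyclins ccnb2 and ccnb3 departed from ccnb1. Counts of ccnb2 (ENSDARG00000036180) were only 3 to 86 with a median of 17, so its values carry wide counting error. In the 6 letter d libraries its r with the other genes was -0.85, with its lowest deviation in hMYC-13 (-0.60), a leukemia in which the other genes were high. For ccnb3 (ENSDARG00000034855), with 41 to 339 counts, r in letter d was -0.62 and its deviation in hMYC-13 was -0.51. Both were at their highest in hMYC-8 like the rest, and in letter c their r was 0.96 and 0.87.

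The gene aurka (ENSDARG00000012485), which encodes Aurora A, the kinase of centrosome maturation and spindle assembly, had the lowest r with the rest over all 12 libraries, though not within letter d or without hMYC-4 and hMYC-8, where ccnb2 and ccnb3 were lower. Its log2 CPM was 3.12 at the lowest, 4.03 at the median and 4.94 at the highest in letter d, against 4.30, 4.53 and 6.02 in letter c, from 84 counts in hMYC-11 to 790 in hMYC-8. The deviation of aurka minus that of the mean of the other 37 genes was 1.72 in hMYC-4, 0.86 in hMYC-5, 0.60 in hMYC-6 and 0.26 in hMYC-2. It was between -0.26 and -0.07 in hMYC-8, hMYC-13, hMYC-12, hMYC-3 and hMYC-14. It was -0.74 in hMYC-9, -0.80 in hMYC-10 and -1.09 in hMYC-11. The leukemia lowest in mitosis genes was therefore above the mean for aurka, by 0.16, and aurka was the only 1 of the 38 above its mean there.

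**Figure D4:**
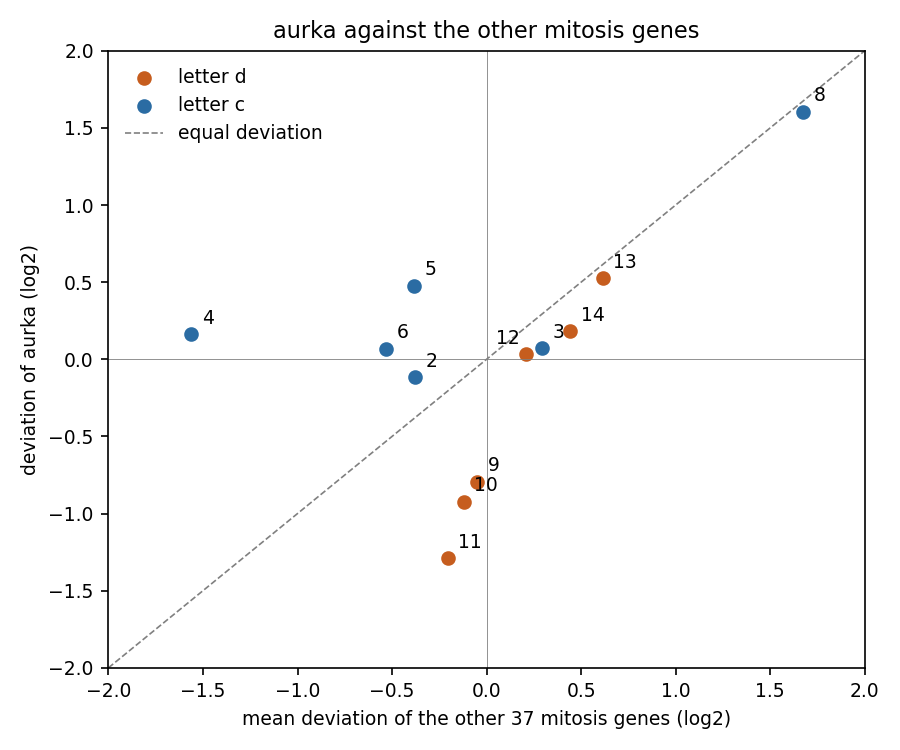
Deviation of aurka (vertical axis, log2 CPM minus its 12-library mean) against the mean deviation of the other 37 mitosis genes (horizontal axis, log2), for 12 leukemias numbered as in their titles and coloured by letter; the dashed line marks equal deviation. Letter d libraries lie along a steep line below the diagonal, and hMYC-4, hMYC-5, hMYC-6 and hMYC-2 of letter c lie above it.

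The departure of aurka differed by letter. All 6 letter d libraries had aurka below the other genes, by a mean difference of -0.53 ± 0.41 (SD, n = 6). In letter c 2 of 6 libraries did, with a mean difference of 0.53 ± 0.71 (SD, n = 6), which includes the 1.72 of hMYC-4. Deviations are centred over the 12 libraries, 6 in each letter, so the 2 means mirror each other and only the contrast between letters is informative. The ranges of the letters overlapped, and this contrast, seen in the data, was not tested. Within letter d, aurka followed the other genes closely (r 0.976 over 6 libraries), at 2.13 log2 units per unit of their mean. Within letter c the slope was 0.45 and r was 0.77. Its r over the libraries was 0.68 without hMYC-4 and 0.05 without hMYC-8. Its difference from the other genes also went with the B-cell score, the mean deviation of 10 B markers (r 0.70 over 12 libraries, 0.63 without hMYC-4). The lowest B scores were those of hMYC-11, hMYC-9 and hMYC-10 (-3.88, -3.32 and -2.94), the leukemias in which aurka was lowest. The highest were those of hMYC-3, hMYC-4 and hMYC-5 (4.27, 3.74 and 3.59), where aurka differed from the others by -0.22, 1.72 and 0.86. In hMYC-12, with a B score of 2.36, the difference was -0.17. In hMYC-6 and hMYC-2, with B scores of -0.41 and -1.21, it was 0.60 and 0.26. The lowest B scores were all in letter d and the highest in letter c. The part of B-type RNA in this difference from the other genes, apart from the letter, was not tested, and fits of the level of aurka are given below.

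Over the 12 libraries together, partners of aurka did not move closely with it. The r of aurka with tpx2 was 0.46, near its r of 0.48 with the mean of all the other mitosis genes, while tpx2 followed the set. With bora, the cofactor through which Aurora A activates Plk1, the r of aurka was -0.17, and that of tpx2 with bora was 0.54. The paralog aurkb, the kinase of the chromosomal passenger complex, had an r of 0.945 with the other mitosis genes and a level in hMYC-8 that was 10.5 times that in hMYC-4, against 2.73 times for aurka.

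In the spindle checkpoint, bub1, bub1bb, mad2l1 and ttk, which hold back the anaphase-promoting complex, had r of 0.91 to 0.97 and were 6.65 to 13.5 times as high in hMYC-8 as in hMYC-4. The gene sgo1, whose product shields cohesin at centromeres, had a wide range, with log2 CPM of 3.36, 3.90 and 4.25 at the lowest, median and highest in letter d, against 2.01, 3.61 and 6.03 in letter c. It was 16.9 times as high in hMYC-8 as in hMYC-4. By contrast bub3, a checkpoint protein that also works outside mitosis, moved with the set (Pearson r 0.90, Spearman rho 0.85) over a small range. It was 2.85 times as high in hMYC-8 as in hMYC-4.

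Of the chromosomal passenger complex, which corrects faulty spindle attachments, the kinase gene aurkb and cdca8, which encodes Borealin, were matched, and both followed the set over all libraries. A further gene of the complex, birc5b, a survivin gene, did not pass the filter on low counts. Within letter d their r was 0.25 and 0.19. Their mean deviation in hMYC-10 was 0.36, 0.50 above the mean of all 38 genes, and in hMYC-13 it was 0.17, 0.45 below that mean. Counts of cdca8 were 59 to 701, and no replicate of a leukemia was there to weigh these differences.

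The kinetochore genes stayed close to the set. The motor gene cenpe, cenpf of the outer kinetochore, and ndc80, nuf2 and spc25 of the NDC80 complex that binds microtubules, had r of 0.90 to 0.98 and were 7.74 to 10.3 times as high in hMYC-8 as in hMYC-4. Of these, spc25 was lowest in hMYC-6, at a log2 CPM of 2.22. The spindle kinesins kif11, which pushes the poles apart, kif15, which can stand in for it, and kif2c, which shortens microtubules at centromeres, had r of 0.93 to 0.98.

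Condensin and chromosome structure genes included the 3 with the steepest slopes in the set. The slope on the mean of the other genes was 1.29 for top2a, the topoisomerase that untangles sister chromatids, 1.23 for smc2, 1.20 for ncapd2, 1.18 for ncapg, 1.15 for ncaph, 1.095 for mki67 and 0.88 for smc4. Among the other genes it was 1.19 for sgo1 and 1.15 for kif15 at the upper end, and 0.47 for aurka, 0.50 for bub3, 0.50 for ccnb3 and 0.59 for cdc20 at the lower end. The groups were not tested against each other. In log2 CPM, top2a was 7.45, 8.02 and 8.66 at the lowest, median and highest in letter d, against 5.34, 7.15 and 9.45 in letter c. Its CPM was 17.4 times as high in hMYC-8 as in hMYC-4. The proliferation marker mki67, whose product coats mitotic chromosomes, was 8.30, 8.70 and 9.47 in letter d, against 6.78, 8.44 and 10.29 in letter c. As a group these 7 genes exceeded the mean of the set by 0.32 in hMYC-13 and lay under it by 0.35 in hMYC-6. The core subunit smc4 had a deviation of 1.23 in hMYC-13, near its 1.43 in hMYC-8, and -1.20 in hMYC-6, under its -0.96 in hMYC-4.

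At anaphase, espl1 followed the set closely and was 12.4 times as high in hMYC-8 as in hMYC-4. The gene cdc20, which activates the anaphase-promoting complex and is the target of the checkpoint, was 3.08 times as high, with nearly level low values in hMYC-6 (-0.54), hMYC-4 (-0.52), hMYC-11 (-0.52) and hMYC-2 (-0.50). The cytokinesis genes kif23 and racgap1 of centralspindlin, kif20a of the midzone and anln of the contractile ring had r of 0.93 to 0.97. Their mean was 0.23 above that of the set in hMYC-8 and 0.38 below it in hMYC-10.

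The letters were compared across all genes with edgeR's quasi-likelihood test, letter d over letter c, with Benjamini-Hochberg adjustment over the 13663 genes. No mitosis gene was called: 0 of 38 had an adjusted p under 0.05, against 0.344% of all genes, and 0 of 38 had an unadjusted p under 0.05, against 20.4% of all genes. DESeq2's Wald test also called 0 of the 38, against 1159 of all 13663 genes. The median log2 fold change over the 38 was -0.03, and over all genes tested -0.02. Of the 38, 16 were above 0, against 6551 of all 13663 genes. The log2 fold change largest in size was that of aurka, -0.75 ± 0.38 (SE), with a 95% interval from -1.59 to 0.08 and an edgeR adjusted p of 0.29. With each library left out in turn it was -0.97 to -0.38, smallest in size without hMYC-8. Without both hMYC-4 and hMYC-8 it was -0.38. For mki67 the log2 fold change was -0.02 (95% interval -1.04 to 0.99), so the test leaves room for a change of about 1 log2 unit either way. The ranges of the letters overlapped for all 38 genes, but the share over all genes is not given, so nothing is read from this. The mitosis score averaged 0.13 ± 0.34 (SD, n = 6) in letter d and -0.13 ± 1.06 (SD, n = 6) in letter c, with ranges of 0.85 in letter d and 3.19 in letter c, which holds both hMYC-8 and hMYC-4. Without these 2 libraries 37 of the 38 log2 fold changes were above 0, with a median of 0.36. The share of all genes above 0 in that fit is not given. Of the 38, 7 had an unadjusted p under 0.05. An adjusted p under 0.05 was found for 0 of the 38, against 7 of all 14217 genes. Without hMYC-8 alone the median was 0.55, with 8 genes under an unadjusted 0.05 and 0 called, against 46 of all 14033 genes called. Without hMYC-4 alone the median was -0.21. The sign of the median thus turned with these libraries. It was also above 0 without hMYC-11 (0.04), with library totals in place of TMM (0.06), with upper quartile factors (0.03) and with no filter on low counts (0.01). The share of all genes under an unadjusted 0.05 is not given for the fits without hMYC-8 or without both libraries. With all 12 libraries that share was 20.4%, so nothing is read from the 7 and 8 genes.

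Since the labels give no B or T type, it entered as a continuous measure, the mean deviation of 17 T markers minus that of 10 B markers in each library. Not every T marker followed this measure. Its edgeR slope was above 0 for 14 of the 17 T markers, the lowest being -1.59 log2 units per SD, and for 0 of the 10 B markers. This T minus B score was lowest in hMYC-5 (-6.93), hMYC-3 (-6.01) and hMYC-4 (-4.20), followed by hMYC-12 (-1.53), hMYC-13 (0.09), hMYC-6 (1.12), hMYC-8 (1.81), hMYC-14 (1.95), hMYC-2 (2.25), hMYC-10 (3.20), hMYC-9 (3.73) and hMYC-11 (4.53). These 3 leukemias with the strongest B signal had mitosis scores of -0.36 (hMYC-5), 0.29 (hMYC-3) and -1.52 (hMYC-4). Counted from the highest of the 12, they ranked 9, 4 and 12. Over the 12 libraries the mitosis score and the T minus B score had a Pearson r of 0.24 and a Spearman rho of 0.03, and r was -0.13 without hMYC-4 and hMYC-8. Within letter d r was -0.71 and within letter c 0.32 (6 libraries each), so the relation did not hold in 1 direction.

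In edgeR's test of the slope on this score, 0 of 38 mitosis genes were called, against 13.3% of all genes (5.21% rising and 8.1% falling). An unadjusted p under 0.05 was found for 0 of the 38, against 27.1% of all genes. DESeq2 also called 0 of the 38, against 2978 of all 13663 genes. The slopes had a median of 0.20 log2 units per SD of the score, against 0.02 over all genes. Of the 38 slopes, 36 were above 0, with ttk and aurka below, against 7339 of all 13663 genes above 0. The 38 genes vary together, so their signs are not independent of each other. With the letter added to the fit the median was 0.24 and 0 were called, against 1416 of all 13663 genes. The largest was that of sgo1, 0.46 ± 0.33 (SE), with an edgeR adjusted p of 0.41. The slope of aurka was -0.19 ± 0.24 (SE, 95% interval -0.71 to 0.33, edgeR adjusted p 0.66). With the letter added to the fit, the slope of aurka was -0.04 (edgeR adjusted p 0.95). With the score added to the letter fit, its log2 fold change by letter was -0.73 (edgeR adjusted p 0.40). Without hMYC-4 and hMYC-8 the median slope was -0.04, with 15 of 38 above 0 (share of all genes not given). The shared direction thus went with those 2 leukemias. In the fit without them 0 of the 38 were called, against 1323 of all 14217 genes. In that fit the slope of aurka was -0.40, with an unadjusted p of 0.026 and an edgeR adjusted p of 0.15.

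**Figure D5:**
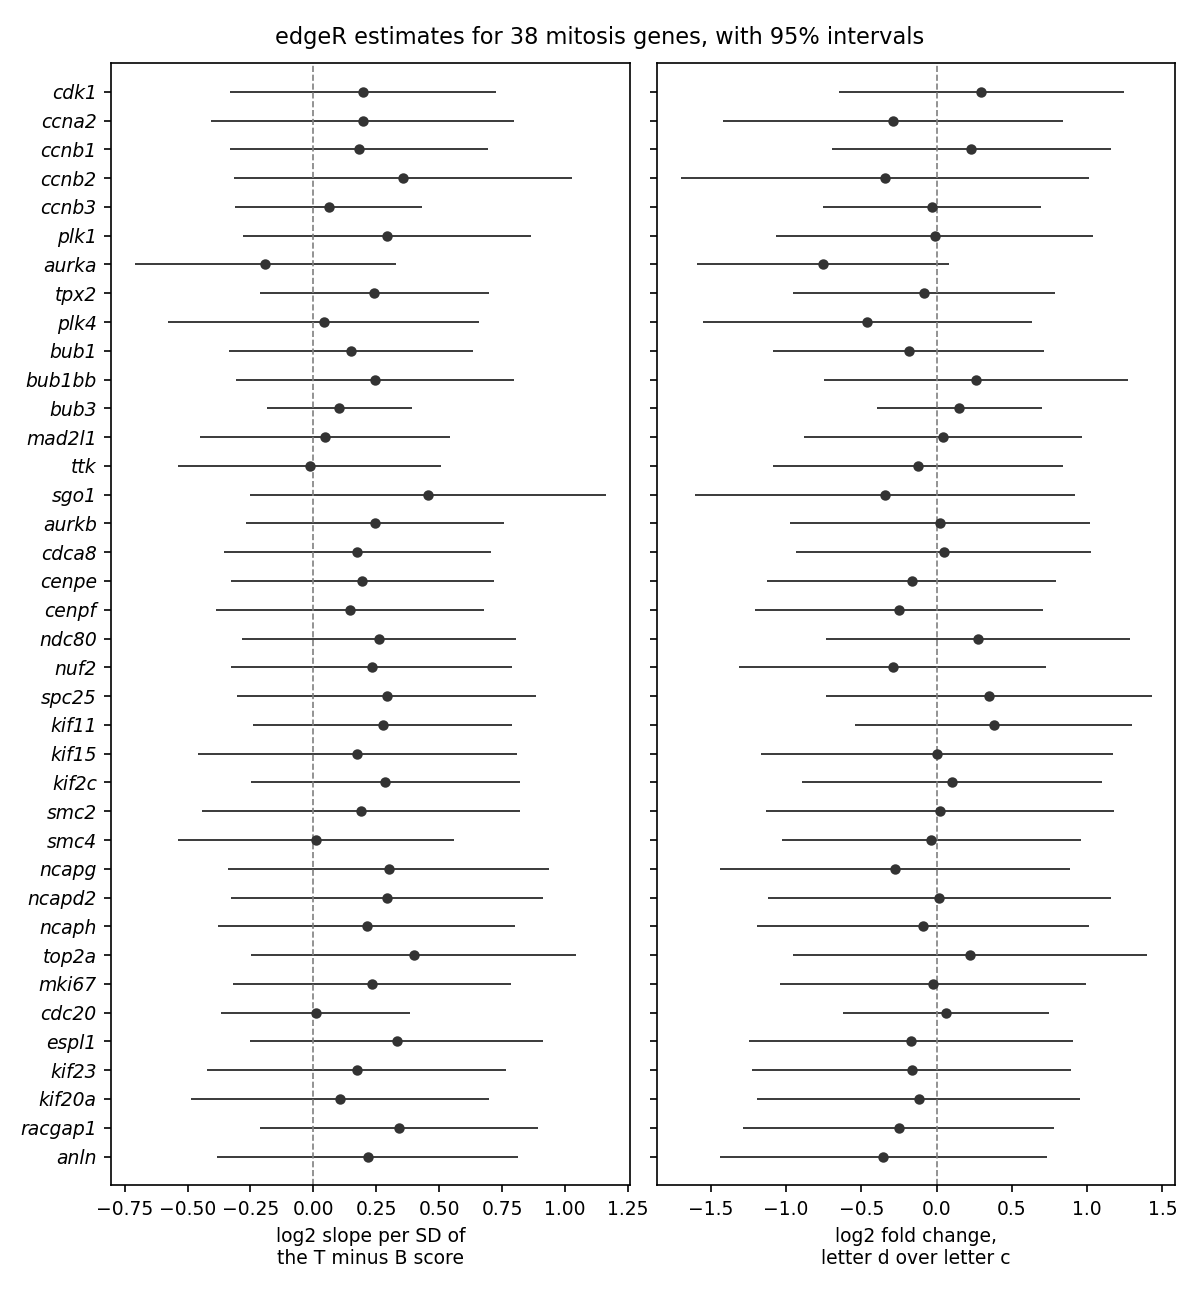
edgeR estimates for the 38 mitosis genes with 95% intervals: left, the log2 slope per SD of the T minus B score over 12 libraries; right, the log2 fold change of letter d over letter c (6 libraries each). All intervals include 0, and aurka is the lowest in both panels, at -0.19 and -0.75.

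Other genes of the division cycle were set beside the pattern. Their lists came from textbook roles and were chosen with earlier results of these data known. Among 57 further mitosis genes the median r with the mitosis mean was 0.902. Of the 57, 29 were at 0.9 or more, against 0.915% of all genes, and 54 were highest in hMYC-8, against 7.82%. As for the members, nothing is read from these shares. Members of this list with the highest r were cenpt (0.986) and knl1 (0.983), both of the kinetochore, and melk (0.983), a kinase gene of dividing cells. Chosen after its value was seen, zw10, a kinetochore gene that also serves vesicle transport, had an r of -0.04. It was the only 1 of the 57 called on the T minus B score, against 13.3% of all genes (8.1% falling). Its slope was -0.64 ± 0.12 (SE, edgeR adjusted p 0.0045), so it was higher in leukemias with more B signal. By letter 0 of the 57 were called, against 0.344% of all genes.

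Neighbouring lists were looser. Over 17 genes of the anaphase-promoting complex list the median r was 0.43, with fbxo5, its inhibitor, at 0.939 and anapc7 at 0.86. Among 5 cohesin genes the median was 0.772, led by esco2, the acetyltransferase of S phase cohesion, at 0.947. Of 18 regulators of cell cycle transcription (median 0.566), foxm1 had an r of 0.976 and mybl2b, which encodes B-MYB, 0.911. In log2 CPM, foxm1 was 1.90 in hMYC-4, 3.85 at the median and 5.90 in hMYC-8. On the letters and on the T minus B score 0 genes of these 3 lists were called, against 0.344% and 13.3% of all genes.

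DNA replication genes followed the mitosis genes only in part. Of 38 measured genes, 18 had an r of 0.7 or more, against 3.1% of all genes. An r of 0.9 or more was found for 1, tk1 (thymidine kinase, 0.916), against 0.915% of all genes. The median was 0.695. The replication score, the mean deviation of these genes, was 0.95 in hMYC-8, 0.95 in hMYC-13 and 0.95 in hMYC-14, so these 3 leukemias were level in replication genes while hMYC-8 stood above in mitosis genes. At the low end it was -1.19 in hMYC-6, -0.95 in hMYC-2 and -0.76 in hMYC-4. The r of the 2 scores was 0.79 over 12 libraries, 0.90 without hMYC-4 and hMYC-8, 0.82 within letter d and 0.84 within letter c. By letter 0 of the 38 replication genes were called, against 0.344% of all genes. On the T minus B score 1 was called as falling, against 8.1% of all genes falling. This was ccne2, a cyclin E gene of S phase entry (-0.76 ± 0.20 SE, edgeR adjusted p 0.027).

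Among 19 inhibitors of the cycle and p53 target genes the median r was -0.03. The inhibitor genes cdkn2d (0.797) and cdkn2c (0.717) were highest in hMYC-8 and lowest in hMYC-4 like the mitosis genes, while ccng1 (-0.54), a p53 target, was lowest in hMYC-8. On the T minus B score 1 of the 19 rose and 4 fell, against 5.21% of all genes rising and 8.1% falling; by letter 0 were called, against 0.344%. Of 20 genes known as targets of MYC, mainly of ribosome assembly, 16 had an r below 0 with the mitosis mean, against 6884 of all 13663 genes. The median r of the 20 was -0.18, against -0.004 over all genes, with ldha, lactate dehydrogenase, at -0.57. On the T minus B score 2 of the 20 fell, ldha and eif4ebp1, a share near the 8.1% of all genes. By letter 0 of the 20 were called, against 0.344% of all genes. Leukemias high in mitosis genes were thus not in general high in these MYC targets, with a Pearson r of -0.26 between the scores, though r was 0.46 within letter d and -0.35 within letter c.

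Markers of other cells were set beside the extremes. Summed myeloid markers (9 genes) were 57.4 CPM in hMYC-8 and 966 CPM in hMYC-4, and 28.6 to 880 CPM in the other 10. Most of the sum in hMYC-4 was spi1b and cybb, which B cells also express. Of the other myeloid markers, mmp13a (135 counts), mmp9 (302) and nccrp1 (493) were highest in hMYC-4, while lyz, csf1ra, csf3r and marco were highest elsewhere. The mean deviation of the 9 myeloid markers was also highest in hMYC-4, at 1.89. In hMYC-3 and hMYC-5 the sums were 880 and 857 CPM, with mitosis scores of 0.29 and -0.36. Epithelial markers (8 genes) summed to 77.3 CPM in hMYC-8 and 63.7 CPM in hMYC-4, with 5.83 to 130 CPM elsewhere. Erythroid markers (5 genes) were at 37.1 CPM in hMYC-8 and 39.3 CPM in hMYC-4, within the 7.22 to 162 CPM of the others, and no muscle marker exceeded 10 counts in any library. Exocrine pancreas markers (6 genes) summed to 6.22 CPM in hMYC-8 and 1.83 CPM in hMYC-4, and reached 122 CPM in hMYC-6. The part of other cells in the mitosis scores was not tested.

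Outside every list, the 8 genes whose pattern was most like the mitosis mean over the 12 libraries had r of 0.971 to 0.986. They were KIF4A (0.986), named as the human counterpart of the listed kif4 and so perhaps no outside gene, si:dkey-25o16.4 (0.984), MTF2 (0.977), kif20bb (0.976), knstrn (0.975), numa1 (0.975), an unnamed gene (ENSDARG00000099194, 0.974) and SLC29A2 (0.971). All 8 were highest in hMYC-8 and lowest in hMYC-4. Without those 2 libraries their r was 0.877 to 0.972.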

How the data were processed

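RNA of 13 sorted leukemias was extracted with Trizol and made into stranded poly(A) libraries, per the labels' protocols. The authors deposited raw read counts per gene; the submitters' processing notes name bcl2fastq, STAR, Picard, featureCounts and the build GRCz10. What each did, which annotation was counted and whether strand was used are not given in the sources used here, so overlapping, antisense and near-identical genes are uncertain. The name table matched 26269 of 32105 identifiers (81.8%). Symbols were matched in any letter case or, as added after the files were seen, through RefSeq synonyms (GRCz12tu); a symbol with more than 1 identifier was left out. The members and lists were chosen with earlier results of these data known.

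Over 12 libraries without hMYC-1, filterByExpr kept 13663 genes; log2 CPM used TMM factors and a prior count of 2. edgeR 4.0.16 (limma 3.58.1, R 4.3.3; glmQLFit and glmQLFTest, two-sided) tested letter d over letter c and the slope on the T minus B score divided by its SD (3.84 log2 units), with Benjamini-Hochberg adjustment over all genes and a threshold of 0.05. The markers that make up that score are not evidence of it, and genes that follow it include them. Nothing says whether the leukemias came from different fish, so p-values measure the spread between these libraries. Named genes were all matched members, up to 6 per other list by the size of r, and the 8 genes outside the lists most like the mitosis mean; exceptions are marked. Alternatives were library totals, upper quartile factors, DESeq2 1.42.0, other filters (none, or a mean count of at least 10), prior counts of 0.5 and 5, all 13 columns, covariates, other measures of likeness and spread, and libraries left out. The scripts were tested on simulated data. Library totals of 8166453 to 12297780 counts leave ccnb2 as the only mitosis gene with under 20 counts at the median.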

Additional observations from a re-analysis of the deposited data

How the results depend on the processing

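Of 168 alternative values for the results above, 161 kept their direction and side of the threshold or moved by less than the spread, 0 reversed and 7 moved. The letter and T minus B results of the set were scored by the number of genes called, so a turn in the sign of their median was not counted. By letter the median log2 fold change went from -0.03 to 0.55 without hMYC-8. The median slope on the T minus B score went from 0.20 to -0.04 without hMYC-4 and hMYC-8. The score range of 3.19 log2 units from hMYC-8 to hMYC-4 was 1.12 without both, and 2.14 to 3.2 with each library left out in turn (2.14 without hMYC-8, 2.21 without hMYC-4). The median SD of 0.83 was 0.45 without both, 0.66 to 0.87 with each library left out (0.66 without hMYC-8, 0.68 without hMYC-4), and 0.57 as a median absolute deviation. The median r was 0.929 to 0.960 with each library left out, 0.895 as Spearman's rho and 0.886 relative to the DNA replication genes. No mitosis gene was called by letter or on the T minus B score in any alternative, DESeq2 and each library left out included. Over all genes, letter calls were 47, but 1159 with DESeq2, 20 with a mean count of at least 10, 7 without a filter, 7 with the T minus B score added, 7 without hMYC-4 and hMYC-8, 0 with hMYC-1 included, and 8 to 59 with each library left out. Calls on the T minus B score were 1819, but 3048 without a filter, 2978 with DESeq2, 748 on the T score alone, and 1017 to 2340 with each library left out. The cause was not tested. No paired analysis was possible because all libraries belong to 1 group and share no replicate numbers. The promoter motif counts were not run. Limits: each leukemia is 1 library, and low counts limit ccnb2.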
